A study of Homo sapiens with 12 samples.

Results

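The RNA of HEL cells (HEL 646C in the sample titles, which do not say what 646C stands for) that had regrown after doxorubicin alone (Doxo, n = 3) was compared with that of untreated HEL cells (NT, n = 2), as fragment counts per gene. These 5 libraries are all those that the labels put in the Doxo and NT groups, out of 12 in the series. HEL is an established human erythroleukemia line with erythroid and megakaryocytic features, and its cells had been tagged with a library of DNA barcodes. Doxo cells, replicates 4, 5 and 6, had received 1.8 µM doxorubicin for 72 to 74 h, were washed and enriched for live cells on a Ficoll gradient, and then grew for about 30 days without drug until they reached the number of cells that had been seeded. NT cells, replicates 1 and 2, were kept in medium with 0.1 µM dimethyl sulfoxide, and the labels do not give their time in culture before extraction relative to the regrowth of Doxo cells. The drug and the regrowth from surviving cells came together, and the part of each cannot be told apart. The other 7 libraries, relapses after doxorubicin with 6 µM cytarabine (Doxo+Cyta, n = 3) or with cytarabine and 0.1 µM decitabine (Doxo+Cyta+DAC, n = 4), entered the fit for the scaling and for the spread between replicates and are otherwise compared only where they are named. The labels call the samples biological replicates of 1 cell line, so p-values measure the spread between such cultures.

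Doxorubicin is an anthracycline. It slips between the bases of DNA and traps topoisomerase II on cut strands, so that double-strand breaks are left, and the damage activates the kinases ATM, ATR and DNA-PK. HEL cells carry an activating mutation of JAK2, a kinase of cytokine receptors. Immediate early genes are transcribed within minutes of a growth, stress or cytokine signal through factors already present in the cell, and many encode transcription factors of the AP-1, EGR and NR4A families.

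Total counts were 18435302 and 15685093 in NT replicates 1 and 2 and 14155038, 17823014 and 16531645 in Doxo replicates 4, 5 and 6, and lay between 12763582 and 19106235 over all 12 libraries. A library's lowest readable level, 3 counts, corresponded to 0.154 to 0.209 CPM in Doxo and NT (counts after TMM scaling of the library totals), a limit that covers counting error only. No pair of libraries within a group agreed within sampling noise. The 11 erythroid and megakaryocytic genes checked as markers of HEL summed to 7865 to 9073 CPM in NT and 8975 to 9890 CPM in Doxo, with PF4 at most 3 counts in each library. Of markers of other cells, the defining T-lymphocyte genes CD3D, CD3E and CD3G and the B-lymphocyte genes MS4A1 and PAX5 held at most 3 counts in every library. Other B-lymphocyte markers were present: CD79B was at 22.0 and 19.7 CPM in NT and 21.3, 23.8 and 24.6 CPM in Doxo, and CD79A at 5.30 and 3.75 CPM and 3.35, 2.33 and 3.09 CPM, and neither passed the test, while IGLL1 fell and is described among the steepest falls. The summed T-lymphocyte markers were 27.0 to 28.3 CPM in NT and 47.5 to 56.5 CPM in Doxo, nearly all of it CD2, and the 10 monocyte and granulocyte markers 50.7 to 53.7 CPM and 62.7 to 74.0 CPM, with MPO, ELANE and S100A9 at most 3 counts. Of the latter, LYZ, which encodes lysozyme, rose from 28.3 and 27.8 CPM to 31.5, 44.9 and 44.4 CPM (adjusted p = 0.0477), and FCGR3A, an Fc receptor, from 0.257 and 0.0596 CPM to 0.977, 2.10 and 1.70 CPM (adjusted p = 0.0115). ITGAM, at 16.9 to 18.3 CPM, and CSF3R, at 4.29 to 7.76 CPM over the 5 libraries, did not pass. Fibroblast markers summed to 35.0 to 39.5 CPM and 40.4 to 45.3 CPM, nearly all PDGFRB. Epithelial markers summed to 0.536 to 0.669 CPM and 0.558 to 1.63 CPM, and B-lymphocyte markers to 26.1 to 30.9 CPM and 24.6 to 27.8 CPM. Endothelial markers summed to 168 to 179 CPM and 143 to 155 CPM, nearly all PECAM1 and KDR. The part of these markers in the results was not tested. In bulk RNA, fewer cells of a kind and less RNA per cell cannot be told apart.

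Of 14164 genes with enough counts to test, 1515 differed between Doxo and NT at an adjusted p under 0.05, or 10.7% of those tested. Of these, 859 were higher in the relapse (6.06%) and 656 lower (4.63%). Tests were edgeR's quasi-likelihood tests with Benjamini-Hochberg adjustment, two-sided, in 1 fit over all 12 libraries, and genes that passed are named called. Each log2 fold change, given as log2 ratio, is that of Doxo over NT, with its standard error (SE). Most changes were small. The median fold was 1.78 among the genes that rose and 1.76 among those that fell, 548 called genes differed by over 2-fold, and 101 differed by over 3-fold at an adjusted p under 0.01 (0.713%), 77 of them higher (0.544%) and 24 lower (0.169%). The libraries of the groups did not overlap in 6947 of all tested genes (49.0%), and all 1515 called genes were among them. The median log2 fold change over all tested genes was 0.01.

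These counts rested on single libraries. Without NT replicate 1 the number of called genes was 81, and without NT replicate 2 it was 105, with the remaining NT library assumed to vary like the other groups. It was 3137 without Doxo replicate 4, 462 without Doxo replicate 5, 500 without Doxo replicate 6, and 2585 without replicate 20 of Doxo+Cyta, which enters through the spread and the scaling. Without that library the share of called genes that were higher was 49.8% in place of 56.7%, and the median log2 fold change over all tested genes was -0.02. Of 112 genes that the naming rule picked and the fit called, 21 stayed called with each of the 5 NT and Doxo libraries left out in turn. Among these were FOSB, JUN, EGR2, EGR3, NR4A1, NR4A2, DUSP1, DUSP5, CXCL8, PTGS2, ADM, PPM1D, HBE1 and DMTN, which were higher, and HDAC9, SGCZ, IGLL1, ATR and LINC00176, which were lower. The called genes named by the rule other than these 21 lost their call in at least 1 of these 5 fits. For the lists below with no such count beside them, 0 or 1 gene was called in each direction without NT replicate 1 or without NT replicate 2, at most 2 without Doxo replicate 5 or 6, and at most 6 without Doxo replicate 4.

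Immediate early genes had the highest median of the lists described here. Of 42 genes on that list, 39 were tested, 28 rose and 1 fell, with a median log2 ratio of 1.23 beside 0.01 for all tested genes. Of the tested members 74.4% were called, beside 10.7% of all tested genes. Without NT replicate 1, 10 of them rose, and 12 did without NT replicate 2. Without Doxo replicate 4, 5 or 6 the number was 27, 23 or 24. The gene that fell, HES1, was not called without either NT library or without Doxo replicate 5 or 6.

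FOSB, an AP-1 subunit of the FOS family (chromosome 19, 45467995 to 45475179 of GRCh38), was at 6.38 and 8.22 CPM in NT and 209.97, 152 and 149.8 CPM in Doxo replicates 4, 5 and 6. All 3 relapse libraries lay far above both untreated ones, with replicate 4 the highest, for a rise of 23.4-fold (log2 ratio 4.55, SE 0.33, adjusted p = 1.95e-05). JUN, the usual partner of FOS proteins in AP-1, was at 64.1 and 55.2 CPM in NT and 208, 262 and 272 CPM in Doxo, 4.15-fold higher (log2 ratio 2.05, SE 0.16, adjusted p = 1.95e-05). FOS itself, not picked by the rule and shown after its values were seen, was less abundant, at 5.76 and 3.75 CPM and 28.5, 19.6 and 21.97 CPM, and also rose (log2 ratio 2.29, SE 0.37, adjusted p = 0.00328). JUNB, likewise shown after its values were seen, had 148 and 132 CPM in NT and 347, 314 and 336 CPM in Doxo (log2 ratio 1.25, SE 0.23, adjusted p = 0.00573). FOSL1 and FOSL2 rose by 1.63 and 0.77 on the log2 scale (adjusted p = 0.00558 and 0.027).

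The EGR zinc-finger factors EGR2, EGR3 and EGR4 rose from very low levels. EGR2 (chromosome 10, 62811996 to 62819167) was at 0.566 and 0.655 CPM in NT and 10.6, 9.20 and 9.28 CPM in Doxo, which kept the 3 relapse libraries close together and 15.7-fold above NT (log2 ratio 3.98, SE 0.42, adjusted p = 0.000218). EGR3 was at 0.514 and 0.834 CPM in NT and 21.5, 10.2 and 7.89 CPM in Doxo, with replicate 4 clearly above the other two and none near NT (log2 ratio 4.29, SE 0.49, adjusted p = 0.000372). EGR4 ran from 0.566 and 0.834 CPM to 9.07, 2.74 and 3.85 CPM, again highest in replicate 4 (log2 ratio 2.89, adjusted p = 0.00543). EGR1, the most abundant of the family, was at 258 and 235 CPM in NT and 493, 445 and 444 CPM in Doxo without overlap, but did not pass the test (log2 ratio 0.90, SE 0.30, adjusted p = 0.0659). EGR1 and EGR4 are shown after their values were seen.

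The nuclear receptors NR4A1 and NR4A2 rose as well. NR4A1 was at 23.6 and 25.6 CPM in NT and 114, 81.3 and 79.03 CPM in Doxo, 3.71-fold higher (log2 ratio 1.89, SE 0.18, adjusted p = 0.000107). NR4A2 was at 1.95 and 1.61 CPM and 8.52, 9.55 and 8.65 CPM, 4.97-fold higher (log2 ratio 2.31, SE 0.24, adjusted p = 0.000212), and its 3 relapse libraries lay close together. ATF3, a stress-induced factor that pairs with JUN, was at 13.5 and 14.8 CPM and 46.00, 54.7 and 53.8 CPM (log2 ratio 1.86, SE 0.31, adjusted p = 0.00386). Among the remaining members that rose, ZFP36 encodes a protein that destabilizes AU-rich mRNAs (log2 ratio 1.29, adjusted p = 0.000218), PPP1R15A a phosphatase subunit that restores translation after stress (log2 ratio 1.18, adjusted p = 0.000544), KLF6 a zinc-finger factor (log2 ratio 1.69, adjusted p = 0.00225) and RGS1 a brake on G-protein signals (log2 ratio 1.75, adjusted p = 0.000218). MCL1, an anti-apoptotic BCL2 relative with a short-lived mRNA, was at 328 and 364 CPM in NT and 651, 556 and 552 CPM in Doxo (log2 ratio 0.76, SE 0.13, adjusted p = 0.0038). HES1, a NOTCH target, was the member that fell, from 57.97 and 51.6 CPM to 29.2, 28.6 and 31.3 CPM (log2 ratio -0.88, SE 0.24, adjusted p = 0.0323).

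**Figure D1:**
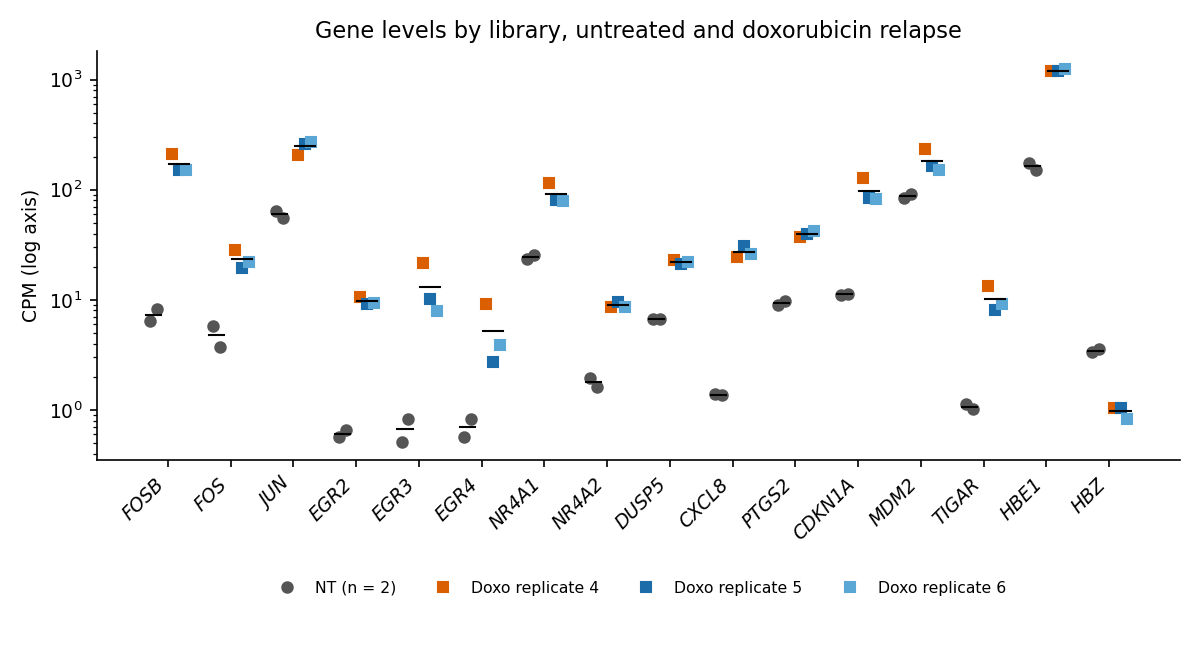
Levels in CPM on a log axis (vertical) of 16 genes (horizontal) in each NT library (gray circles) and in Doxo replicates 4 (orange), 5 (dark blue) and 6 (light blue squares), with a bar at each group mean. Of the 16 genes, 15 are higher in Doxo, while HBZ is lower. They were picked among called genes, and no called gene overlaps between the groups. The libraries do not overlap in 49.0% of all tested genes.

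Promoter sequences were examined for the letters that such signals are known to act through. The AP-1 motif TGACTCA was searched on both strands in the 250 bases before each gene's RefSeq start (GRCh38.p14), and so were the CRE motif TGACGTCA, which CREB and ATF proteins bind, and the CArG box, which serum response factor binds and which was searched in all its letter forms. None of the 3 motifs contains another. Of the 859 genes called higher, 652 had a promoter in the RefSeq table, and 6.44% of them held the AP-1 motif, against 4.10% of 10261 tested genes with a promoter and 2.29% of 480 genes called lower. Among all 35116 promoters the share was 4.203%. For CRE the shares were 4.45% of genes called higher, 3.32% of tested genes, 3.96% of genes called lower and 1.65% of all promoters, and for the CArG box 2.76%, 1.45%, 1.04% and 1.16%. Of 31 immediate early genes with a promoter, 0 held TGACTCA, 4 held a CRE (JUND, MAFF, PPP1R15A and ZFP36L1) and 3 a CArG box (EGR1, EGR2 and SRF). A match describes these letters and does not show that a factor binds. The promoters of CXCL8, the inflammatory gene that rose most, and of EGR2 are printed 5′ to 3′ on the gene's strand because each holds its motif, in capitals: AP-1 in CXCL8, at chr4:73740319-73740568 on the plus strand, starting 137 bases before the start, and the CArG box in EGR2, at chr10:62816367-62816616 on the minus strand, starting 71 bases before the start. These RefSeq starts lie inside the gene bounds printed here from the deposited table, which begin at 73740506 for CXCL8 and reach 62819167 for EGR2.
CXCL8: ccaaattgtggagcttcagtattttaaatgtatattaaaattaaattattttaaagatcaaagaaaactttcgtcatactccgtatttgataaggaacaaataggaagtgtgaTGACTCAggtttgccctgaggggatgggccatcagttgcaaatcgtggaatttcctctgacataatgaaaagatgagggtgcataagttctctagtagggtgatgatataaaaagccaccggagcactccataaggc
EGR2: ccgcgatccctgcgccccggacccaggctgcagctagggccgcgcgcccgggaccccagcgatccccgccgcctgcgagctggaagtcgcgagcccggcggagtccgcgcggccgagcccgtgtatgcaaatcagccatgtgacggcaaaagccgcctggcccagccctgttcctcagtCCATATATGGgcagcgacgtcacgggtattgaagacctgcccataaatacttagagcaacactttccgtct

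CXCL8, which carries that AP-1 match and encodes the neutrophil chemokine interleukin 8 (chromosome 4, 73740506 to 73743716), was at 1.39 and 1.37 CPM in NT and 24.3, 30.7 and 26.1 CPM in Doxo. The relapse libraries lay 19.5-fold above NT (log2 ratio 4.29, SE 0.43, adjusted p = 0.000212), with replicate 4 the lowest of the 3. PTGS2, the inducible cyclooxygenase COX-2, was at 9.05 and 9.77 CPM and 37.3, 39.5 and 42.2 CPM, 4.21-fold higher (log2 ratio 2.08, SE 0.17, adjusted p = 3.38e-05). They belong to a list of 51 NF-kB and inflammatory genes of which 42 were tested, 8 rose and 0 fell, with a median log2 ratio of 0.35, and 3 rose without NT replicate 1 and 3 without NT replicate 2, 10 without Doxo replicate 4, 5 without replicate 5 and 6 without replicate 6. In the full fit 19.0% of the tested members were called, beside 10.7% of all tested genes. The NF-kB subunits RELA (log2 ratio 0.50, adjusted p = 0.012) and RELB (log2 ratio 0.99, adjusted p = 0.00801) and the feedback inhibitor TNFAIP3 (log2 ratio 1.14, adjusted p = 0.0153) were among those that rose.

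Genes on a list of ERK feedback and output rose in part. Of 23 tested members of this list, 7 rose and 0 fell, with a median log2 ratio of 0.44. That was 30.4% called, beside 10.7% of all tested genes. Of these members, 7 rose and 1 fell without Doxo replicate 4, and 7 rose and 2 fell without Doxo+Cyta replicate 20. Without NT replicate 1, 2 of them rose, and 2 did without NT replicate 2, 4 without Doxo replicate 5 and 4 without replicate 6. DUSP5, a nuclear phosphatase of ERK, was at 6.64 and 6.73 CPM in NT and 23.03, 21.2 and 21.9 CPM in Doxo, 3.30-fold higher (log2 ratio 1.72, SE 0.23, adjusted p = 0.000921). DUSP1, a phosphatase of p38, JNK and ERK, was at 21.2 and 20.4 CPM and 41.7, 59.3 and 61.7 CPM, lowest in replicate 4 among the relapses (log2 ratio 1.38, SE 0.19, adjusted p = 0.000979). DUSP8 (log2 ratio 2.71, adjusted p = 0.00641), PHLDA1 (log2 ratio 1.76, adjusted p = 0.0115), ERRFI1 (log2 ratio 0.97, adjusted p = 0.0232), DUSP4 (log2 ratio 0.98, adjusted p = 0.04) and DUSP10 (log2 ratio 0.68, adjusted p = 0.0288) made up the rest.

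JAK2, the kinase that is mutated in this line, was at 409 and 442 CPM in NT and 374, 588 and 571 CPM in Doxo, with replicate 4 below NT and replicates 5 and 6 above, and the group difference did not pass the test (log2 ratio 0.26, SE 0.23, adjusted p = 0.483). Of 33 tested genes of JAK-STAT signaling, 3 rose and 0 fell, or 9.09% against 10.7% of all tested genes, with a median of 0.08, and without NT replicate 1 or without NT replicate 2 the number was 0. Without Doxo replicate 4 it was 6, without replicate 5 or 6 it was 1, and without Doxo+Cyta replicate 20 it was 6. Among them were STAT6 (log2 ratio 0.43, adjusted p = 0.0277) and OSMR, the receptor chain for oncostatin M, which was at 0.823 and 0.834 CPM in NT and 4.68, 5.47 and 4.99 CPM in Doxo (log2 ratio 2.60, SE 0.51, adjusted p = 0.00801).

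Interferon-stimulated genes were higher in replicates 5 and 6 more than in replicate 4. Of 70 tested, 17 rose and 0 fell (24.3% called, beside 10.7% of all tested genes), with a median of 0.35. The median log2 difference from NT was 0.10 in replicate 4 and 0.42 in the mean of replicates 5 and 6, and replicate 4 lay below their mean in 56 of the 70. Without replicate 4, 28 rose and 3 fell, whereas without replicate 5 or 6 the number that rose was 5, without NT replicate 1 it was 0, and without NT replicate 2 it was 1. Of all tested genes, 10.1% rose and 12.2% fell without replicate 4, while 2.05% rose without replicate 5 and 2.28% without replicate 6. GBP2, an interferon-induced GTPase, was at 2.57 and 3.16 CPM in NT and 6.56, 18.7 and 14.96 CPM in Doxo. All 3 relapse libraries were above NT and replicate 4 was well below the others (log2 ratio 2.23, SE 0.34, adjusted p = 0.0027). IRF1, a factor shared with the inflammatory list, was at 90.1 and 91.8 CPM and 167, 207 and 196 CPM (log2 ratio 1.06, SE 0.18, adjusted p = 0.0044). The antigen-presentation genes HLA-B (log2 ratio 0.68, adjusted p = 0.0148), HLA-C (log2 ratio 0.55, adjusted p = 0.0402), HLA-E (log2 ratio 0.68, adjusted p = 0.0296), TAP1 (log2 ratio 0.55, adjusted p = 0.047) and PSMB10 (log2 ratio 0.66, adjusted p = 0.0169) also rose.

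CDKN1A, the cyclin-dependent kinase inhibitor p21 (chromosome 6, 36676460 to 36687339), was at 11.1 and 11.4 CPM in NT and 128, 84.8 and 81.5 CPM in Doxo. Replicate 4 was the highest and none of the 3 was near NT, for a rise of 8.75-fold (log2 ratio 3.13, SE 0.56, adjusted p = 0.0054), although the adjusted p was 0.092 without NT replicate 1 and 0.0756 without NT replicate 2. TIGAR, which lowers glycolytic flux, was at 1.13 and 1.01 CPM and 13.5, 8.15 and 9.09 CPM, 9.44-fold higher (log2 ratio 3.24, SE 0.54, adjusted p = 0.0038, 0.0791 without NT replicate 1 and 0.0645 without NT replicate 2). MDM2, a ubiquitin ligase, was at 83.6 and 90.95 CPM and 235, 165 and 151 CPM, 2.11-fold higher and again highest in replicate 4 (log2 ratio 1.07, SE 0.19, adjusted p = 0.00507, 0.092 without NT replicate 1 and 0.06 without NT replicate 2). PPM1D, the phosphatase WIP1 that ends damage signaling, was at 17.4 and 22.7 CPM and 41.04, 41.3 and 45.6 CPM (log2 ratio 1.09, SE 0.15, adjusted p = 0.000979).

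BBC3, the BH3-only protein PUMA, was at 44.1 and 40.4 CPM in NT and 97.4, 102 and 104 CPM in Doxo (log2 ratio 1.26, SE 0.22, adjusted p = 0.00449), and its adjusted p was 0.0722 without NT replicate 1 and 0.0736 without NT replicate 2. TNFRSF10B, a death receptor for TRAIL, was at 1.59 and 1.97 CPM and 11.8, 8.79 and 9.34 CPM (log2 ratio 2.48, adjusted p = 0.00656), and with PLK2, a polo-like kinase (log2 ratio 2.55, adjusted p = 0.00604), it is shown after its values were seen. Of 18 tested BCL2 family members, 4 rose and 0 fell (22.2% called, beside 10.7% of all tested genes), with a median of 0.19. They were BBC3 and BMF (log2 ratio 1.18, adjusted p = 0.0118), which promote apoptosis, BNIP3 (log2 ratio 0.77, adjusted p = 0.0278), which acts in mitophagy, and the anti-apoptotic MCL1. Without NT replicate 1, 0 members rose, without NT replicate 2, 1 did, and without Doxo replicate 5 or 6, 2 did.

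Proteins that doxorubicin binds, or that pump it out or reduce it, were taken as a list. Of 21 tested targets and handlers of anthracyclines, 1 rose and 2 fell, or 14.3% called against 10.7% of all tested genes, with a median of -0.12 beside 0.01, and the number was 0 in each direction without NT replicate 1, without NT replicate 2 and without Doxo replicate 5 or 6. TOP2A, the topoisomerase of dividing cells, was at 812 and 922 CPM in NT and 736, 869 and 863 CPM in Doxo, with overlapping groups (log2 ratio -0.08, SE 0.16, adjusted p = 0.798). TOP2B, the isoform also present in resting cells, was at 360.4 and 372 CPM and 296, 246 and 242 CPM and fell (log2 ratio -0.49, SE 0.11, adjusted p = 0.0136, 0.116 without NT replicate 1, 0.13 without NT replicate 2, 0.0607 without Doxo replicate 5 and 0.0596 without Doxo replicate 6). GSTP1, a glutathione transferase, rose from 36.99 and 37.6 CPM to 119, 97.3 and 101 CPM (log2 ratio 1.50, SE 0.36, adjusted p = 0.0206), and the reductase NQO2 fell from 9.57 and 10.9 CPM to 5.03, 4.83 and 5.55 CPM (log2 ratio -0.99, SE 0.30, adjusted p = 0.0494). The carbonyl reductases CBR1 (log2 ratio -0.13, adjusted p = 0.689) and CBR3 (log2 ratio 0.73, adjusted p = 0.267), which turn doxorubicin into its alcohol, did not pass the test.

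Of 48 ABC transporter genes, 29 were tested, 3 rose and 4 fell, with a median of -0.16. That made 24.1% called, beside 10.7% of all tested genes. ABCG2, the efflux pump BCRP, was at 0.103 and 0.179 CPM in NT, at most 3 counts per library, and at 2.30, 1.51 and 1.01 CPM in Doxo, at least 9.66-fold higher than the level of 3 counts per library (log2 ratio 3.46, SE 0.65, adjusted p = 0.00671), while its adjusted p was 0.113 without NT replicate 1 and 0.0666 without NT replicate 2. ABCC3, the pump MRP3, was at 5.56 and 7.62 CPM and 21.1, 25.7 and 22.2 CPM, 3.50-fold higher (log2 ratio 1.81, SE 0.33, adjusted p = 0.00553, 0.111 without NT replicate 1 and 0.055 without NT replicate 2). ABCB1, the pump P-glycoprotein that carries doxorubicin, was at 80.9 and 89.5 CPM and 96.9, 119 and 118 CPM, above NT in each relapse library, and did not pass the test (log2 ratio 0.39, SE 0.19, adjusted p = 0.207). ABCC1, the pump MRP1, did not pass either (log2 ratio -0.11, SE 0.12, adjusted p = 0.583). ABCB8, a mitochondrial transporter, fell from 19.4 and 20.9 CPM to 10.7, 6.00 and 6.63 CPM (log2 ratio -1.38, SE 0.22, adjusted p = 0.00328), as did the peroxisomal ABCD3 (log2 ratio -0.53, adjusted p = 0.0177), the sterol exporter ABCG1 (log2 ratio -0.79, adjusted p = 0.0241) and ABCA4 (log2 ratio -2.30, adjusted p = 0.0214). TAP1, counted above, was the other member that rose. Without NT replicate 1, 0 transporters rose and 1 fell, and without NT replicate 2 the number was 0 in each direction. Without Doxo replicate 4, 4 rose and 7 fell, and without replicate 5 or 6, 2 rose and 1 fell.

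Among the globins, the embryonic ε chain HBE1 (chromosome 11, 5268350 to 5270143) was at 176 and 151 CPM in NT and 1189.8, 1199 and 1239 CPM in Doxo. The 3 relapse libraries agreed closely, 7.38-fold above NT (log2 ratio 2.88, SE 0.34, adjusted p = 0.000465). HBZ, the embryonic ζ chain, moved the other way, from 3.34 and 3.57 CPM to 1.05, 1.05 and 0.821 CPM, 3.54-fold lower (log2 ratio -1.82, SE 0.35, adjusted p = 0.00728, 0.0796 without NT replicate 1 and 0.0736 without NT replicate 2). The δ chain HBD was at 11.5 and 11.6 CPM and 19.4, 28.99 and 28.6 CPM (log2 ratio 1.16, SE 0.26, adjusted p = 0.0142, 0.138 and 0.126 without NT replicates 1 and 2, 0.0636 and 0.0603 without Doxo replicates 5 and 6). The γ chains, by far the most abundant globins here, did not pass the test: HBG2 was at 4829 and 4423 CPM and 5094, 5903 and 5767 CPM (log2 ratio 0.27, adjusted p = 0.321) and HBG1 at 1631 and 804 CPM and 1220.5, 1431 and 1476 CPM (log2 ratio 0.18, adjusted p = 0.681). The γ genes, like the α genes, are near-identical copies whose fragments may be split between them or left out, so their values are uncertain, and they are shown after being seen. In all, 2 of 9 tested globin genes rose and 1 fell (33.3% called, beside 10.7% of all tested genes), with a median of 0.27.

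Some heme synthesis genes fell, but the log2 ratio was positive in 7 of the 15 tested. Of these genes 26.7% were called, beside 10.7% of all tested genes. The median difference from NT was -0.34 in replicate 4 and 0.08 in replicates 5 and 6. Of 15 tested enzymes and carriers, 0 rose and 4 fell, with a median of -0.06, and 0 fell without NT replicate 1, 1 without NT replicate 2, and 2 without Doxo replicate 5 or 6. UROD, which decarboxylates uroporphyrinogen, was at 269 and 260.5 CPM in NT and 142, 99.2 and 106 CPM in Doxo, all 3 far below NT (log2 ratio -1.19, SE 0.20, adjusted p = 0.0038), and its adjusted p was 0.0653 without NT replicate 1 and 0.0466 without NT replicate 2. PPOX (log2 ratio -0.81, adjusted p = 0.00656), which acts after it, and the mitochondrial protein TMEM14C (log2 ratio -0.73, adjusted p = 0.0441) also fell. Of 36 tested erythroid genes, 4 rose and 2 fell (16.7% called, beside 10.7% of all tested genes), with a median of -0.01. DMTN, the membrane skeleton protein dematin, was at 136 and 134 CPM and 258, 281 and 274 CPM (log2 ratio 1.00, SE 0.11, adjusted p = 0.000372). Of 29 tested megakaryocyte and platelet genes, 3 rose and 0 fell, with a median of 0.00, SPARC among them (log2 ratio 0.94, adjusted p = 0.00531), and without NT replicate 1 or without NT replicate 2 the number was 0. The called share of megakaryocyte and platelet genes was 10.3%, beside 10.7% of all tested genes. Of 40 tested regulators of stem-cell identity and self-renewal, 1 rose and 2 fell (7.5%), with a median of -0.09. TXNIP, which restrains glucose uptake and thioredoxin, was at 982 and 882 CPM in NT and 1290.2, 2010.2 and 2020.2 CPM in Doxo (log2 ratio 0.93, SE 0.22, adjusted p = 0.0196), and DNMT3B (log2 ratio -0.58, adjusted p = 0.0462) and GATA2 (log2 ratio -0.39, adjusted p = 0.0428) fell. Neither CD34 (log2 ratio -0.58, adjusted p = 0.359) nor MYC (log2 ratio -0.23, adjusted p = 0.264) passed the test.

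Genes of DNA replication fell in part. Of 43 tested S-phase genes, 0 rose and 9 fell, with a median log2 ratio of -0.36, and the number that fell was 27 without Doxo replicate 4, 2 without replicate 5, 2 without replicate 6, 0 without NT replicate 1, 0 without NT replicate 2 and 16 without Doxo+Cyta replicate 20. In the full fit 20.9% of the S-phase genes were called, beside 10.7% of all tested genes. Of all tested genes, 12.2% fell without Doxo replicate 4, 1.22% without replicate 5 and 1.26% without replicate 6. CDCA7, a chromatin factor of S phase, fell by 0.79 on the log2 scale (adjusted p = 0.00771). CDC45, part of the replicative helicase, was at 39.6 and 43.6 CPM in NT and 30.7, 14.4 and 16.2 CPM in Doxo (log2 ratio -1.03, adjusted p = 0.03), and MCM2, another part, at 364 and 373 CPM and 308, 193 and 199 CPM (log2 ratio -0.66, adjusted p = 0.0282), both shown after their values were seen. In both genes replicate 4 lay between NT and the other relapse libraries. Of 52 tested G2/M genes, 3 rose and 1 fell (7.69% called), with a median of 0.01. Of 24 tested G1 cyclins, kinases and inhibitors, 1 rose and 0 fell (4.17%), with a median of -0.13. Both shares lay below the 10.7% of all tested genes. Beside CDKN1A, the inhibitor CDKN1C did not pass (log2 ratio 1.27, adjusted p = 0.179).

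Genes that sense and repair double-strand breaks also fell in part. Of 51 tested, 1 rose and 9 fell (19.6% called, beside 10.7% of all tested genes), with a median of -0.28. Without Doxo replicate 4, 22 fell, while 3 fell without replicate 5, 4 without replicate 6, 1 without NT replicate 1, 1 without NT replicate 2 and 18 without Doxo+Cyta replicate 20. The shares of all tested genes that fell were 12.2% without Doxo replicate 4, 1.22% without replicate 5 and 1.26% without replicate 6. ATR, the kinase of stalled replication forks, was at 27.6 and 30.7 CPM in NT and 16.8, 11.5 and 12.6 CPM in Doxo. The groups did not overlap (log2 ratio -1.10, SE 0.16, adjusted p = 0.00219). PRKDC, the catalytic subunit of DNA-PK that joins broken ends, was at 562 and 588 CPM and 398, 268 and 265 CPM (log2 ratio -0.89, SE 0.18, adjusted p = 0.00905, 0.0868 without NT replicate 1 and 0.0909 without NT replicate 2). The helicase BLM (log2 ratio -0.64, adjusted p = 0.00756), BRCA1 (log2 ratio -0.69, adjusted p = 0.0225), FANCD2 (log2 ratio -0.80, adjusted p = 0.0197) and RAD54L (log2 ratio -0.77, adjusted p = 0.0191), which act in recombination and crosslink repair, fell too. BLM also stands on the S-phase list. DCLRE1C, the end-processing nuclease Artemis, was the member that rose (log2 ratio 0.66, adjusted p = 0.0219).

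Ribosome biogenesis genes fell in 8 of 85 tested members and rose in 1, with a median of -0.06. The called share, 10.6%, was that of all tested genes (10.7%). UTP20, a processome subunit, was at 20.3 and 18.4 CPM in NT and 13.3, 6.17 and 7.51 CPM in Doxo (log2 ratio -1.12, SE 0.27, adjusted p = 0.0188), and POLR1A, the largest subunit of RNA polymerase I, fell by 0.87 on the log2 scale (adjusted p = 0.0191). Without Doxo replicate 4, 25 fell, where 12.2% of all tested genes did, and 0 did without replicate 5, replicate 6, NT replicate 1 or NT replicate 2. Of 76 oxidative phosphorylation genes tested, 0 passed in either direction, with a median of -0.06, by edgeR's quasi-likelihood test. At an unadjusted p under 0.05 the number was 4, with DESeq2 it was 0 higher and 1 lower, and without Doxo replicate 4 the number was 1, and 10 fell without Doxo+Cyta replicate 20. Of 32 tested cholesterol and fatty acid synthesis genes, 0 rose and 3 fell (median -0.12), or 9.38% called against 10.7% of all tested genes.

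Glycolytic and lysosomal genes were higher in some members. Of 47 tested hypoxia and glycolysis genes, 8 rose and 1 fell, with a median of 0.28, and 1 rose without NT replicate 1 and 1 without NT replicate 2, 2 without Doxo replicate 5 and 3 without replicate 6. GAPDH was at 9894 and 9165 CPM in NT and 13719.6, 16403 and 16929 CPM in Doxo, an increase that was among the largest in absolute level (log2 ratio 0.72, SE 0.12, adjusted p = 0.00389, 0.057 without NT replicate 1 and 0.0701 without NT replicate 2). ADM, the vasodilator peptide adrenomedullin, was at 2.73 and 2.86 CPM and 13.7, 12.6 and 10.04 CPM (log2 ratio 2.11, SE 0.28, adjusted p = 0.000897). The glucose transporters SLC2A1 (log2 ratio 0.56, adjusted p = 0.027) and SLC2A3 (log2 ratio 0.73, adjusted p = 0.0145) rose. Of 50 tested lysosome genes, 10 rose and 2 fell, with a median of 0.13, and 0 rose without NT replicate 1 or without NT replicate 2, and 2 without Doxo replicate 5 or 6. Among those that rose, CD68 encodes a glycoprotein of the lysosomal membrane (log2 ratio 1.27, adjusted p = 0.00287) and IDS iduronate sulfatase (log2 ratio 1.35, adjusted p = 0.00604). In the list of amino acid stress genes downstream of ATF4, 4 of 36 tested members rose and 0 fell (median 0.04). Of 18 tested canonical histone genes, 2 rose and 0 fell (median 0.64). Their levels were low, with a mean log2 CPM of 0.85 and 0.98 in NT and 1.13, 1.48 and 1.45 in Doxo. The called share was 11.1% in each of the ATF4 and histone lists, beside 10.7% of all tested genes. It was 19.1% for hypoxia and glycolysis genes and 24.0% for lysosome genes.

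The steepest falls included genes of low level, such as SGCZ and IGLL1, and HDAC9 at a higher level. HDAC9, a class IIa histone deacetylase (chromosome 7, 18086949 to 18997369), was at 19.6 and 23.8 CPM in NT and 0, 0.116 and 0.947 CPM in Doxo, 59.2-fold lower and at most 3 counts in replicates 4 and 5 (log2 ratio -5.89, SE 0.72, adjusted p = 0.000614). Of 17 tested histone deacetylases and sirtuins, 2 rose and 3 fell (29.4% called, beside 10.7% of all tested genes), with a median of -0.08. HDAC1 (log2 ratio 0.49, adjusted p = 0.0167) and SIRT1 (log2 ratio 0.77, adjusted p = 0.017) rose. HDAC9, HDAC7 (log2 ratio -0.52, adjusted p = 0.0115) and SIRT5 (log2 ratio -0.86, adjusted p = 0.0209) fell. SGCZ, a sarcoglycan, was at 2.16 and 1.85 CPM in NT and at 0 in all 3 Doxo libraries, at least 10.5-fold lower than in NT (adjusted p = 0.00341). IGLL1, a surrogate light chain of the pre-B-cell receptor, was at 3.45 and 2.50 CPM and 0, 0.0582 and 0 CPM, at least 15.6-fold lower (adjusted p = 0.000734). CD24, a surface glycoprotein (log2 ratio -2.38, adjusted p = 0.00757), and SERPINE2, a protease inhibitor (log2 ratio -2.51, adjusted p = 0.00536), also fell. At high levels the largest losses included DNMT1, the maintenance DNA methyltransferase, which was at 636 and 717 CPM in NT and 563, 346 and 344 CPM in Doxo, where replicate 4 was the nearest to NT (log2 ratio -0.70, SE 0.18, adjusted p = 0.0271, 0.126 and 0.209 without NT replicates 1 and 2, 0.104 and 0.102 without Doxo replicates 5 and 6).

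The naming rule also picked genes that stand on none of these lists. SCN1A, a sodium channel subunit, was at 0.103 and 0.119 CPM in NT, at most 3 counts per library, and 1.47, 1.75 and 2.59 CPM in Doxo, at least 11.6-fold higher than that level (log2 ratio 4.04, SE 0.62, adjusted p = 0.00276, 0.0722 without NT replicate 1 and 0.0526 without NT replicate 2). DAPP1, a signaling adaptor of blood cells, was at 0.412 and 0.179 CPM and 1.75, 4.13 and 3.09 CPM (log2 ratio 3.29, SE 0.52, adjusted p = 0.00287, 0.0435 and 0.0601 without NT replicates 1 and 2), lowest in replicate 4 among the relapses. GABRB2, a GABA receptor subunit, fell from 10.6 and 11.5 CPM to 1.81, 0.349 and 1.01 CPM (log2 ratio -3.41, SE 0.59, adjusted p = 0.00478, 0.052 and 0.0526 without NT replicates 1 and 2). GJA5, the gap junction protein connexin 40, fell from 10.5 and 10.2 CPM to 3.91, 1.63 and 1.51 CPM, with replicate 4 the nearest to NT (log2 ratio -2.16, SE 0.39, adjusted p = 0.0057, 0.0722 and 0.055 without NT replicates 1 and 2). Among abundant genes, FTL, the light chain of ferritin that stores iron, was at 1710.5 and 1544 CPM in NT and 2204, 2897 and 3005 CPM in Doxo (log2 ratio 0.73, SE 0.15, adjusted p = 0.00866, 0.0841 and 0.119 without NT replicates 1 and 2). NUP210, a nuclear pore protein, fell from 275 and 319 CPM to 196, 116 and 107 CPM (log2 ratio -1.09, SE 0.21, adjusted p = 0.00771, 0.0698 and 0.0949 without NT replicates 1 and 2).

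Replicate 4 stood apart from replicates 5 and 6. The root-mean-square log2 difference over tested genes was 0.525 from replicate 4 to 5 and 0.515 from 4 to 6, but 0.298 from 5 to 6 and 0.294 between the NT libraries. Replicate 4 was the nearest of the 3 to NT, at a mean distance of 0.563 against 0.658 for replicate 5 and 0.645 for replicate 6, so that it was about as far from its own group as from untreated cells. Of 10403 genes with at least 5 CPM in Doxo, 172 differed more than 2-fold between replicate 4 and the mean of the other two, 109 above and 63 below, whereas the same count was 9 for replicate 5 and 2 for replicate 6. A principal component analysis of the 5 libraries used the 500 genes that varied most among them. Its leading component held 76.0% of the variance of those genes and separated Doxo from NT. The next held 14.6%, with a score of -16.3 for replicate 4, 7.38 and 6.34 for replicates 5 and 6, and 0.92 and 1.69 for NT. Among the other relapses, Doxo+Cyta replicate 20 likewise lay 0.575 and 0.570 from its replicates 19 and 22, which were 0.356 apart. The labels name no batch for Doxo replicate 4, and the cause of its position was not tested.

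Its departure touched some gene groups more than others. Replicate 4 lay above the mean of replicates 5 and 6 in 37 of 43 S-phase genes and 75 of 85 ribosome biogenesis genes, and below it in 42 of 52 G2/M genes, 56 of 70 interferon-stimulated genes and 36 of 50 lysosome genes. The median S-phase difference from NT was -0.11 in replicate 4 and -0.58 in replicates 5 and 6, and for ribosome biogenesis it was 0.12 and -0.24. Immediate early genes, by contrast, stood at 1.30 and 1.20. Heme biosynthesis genes had medians of -0.34 in replicate 4 and 0.08 in the others.

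**Figure D2:**
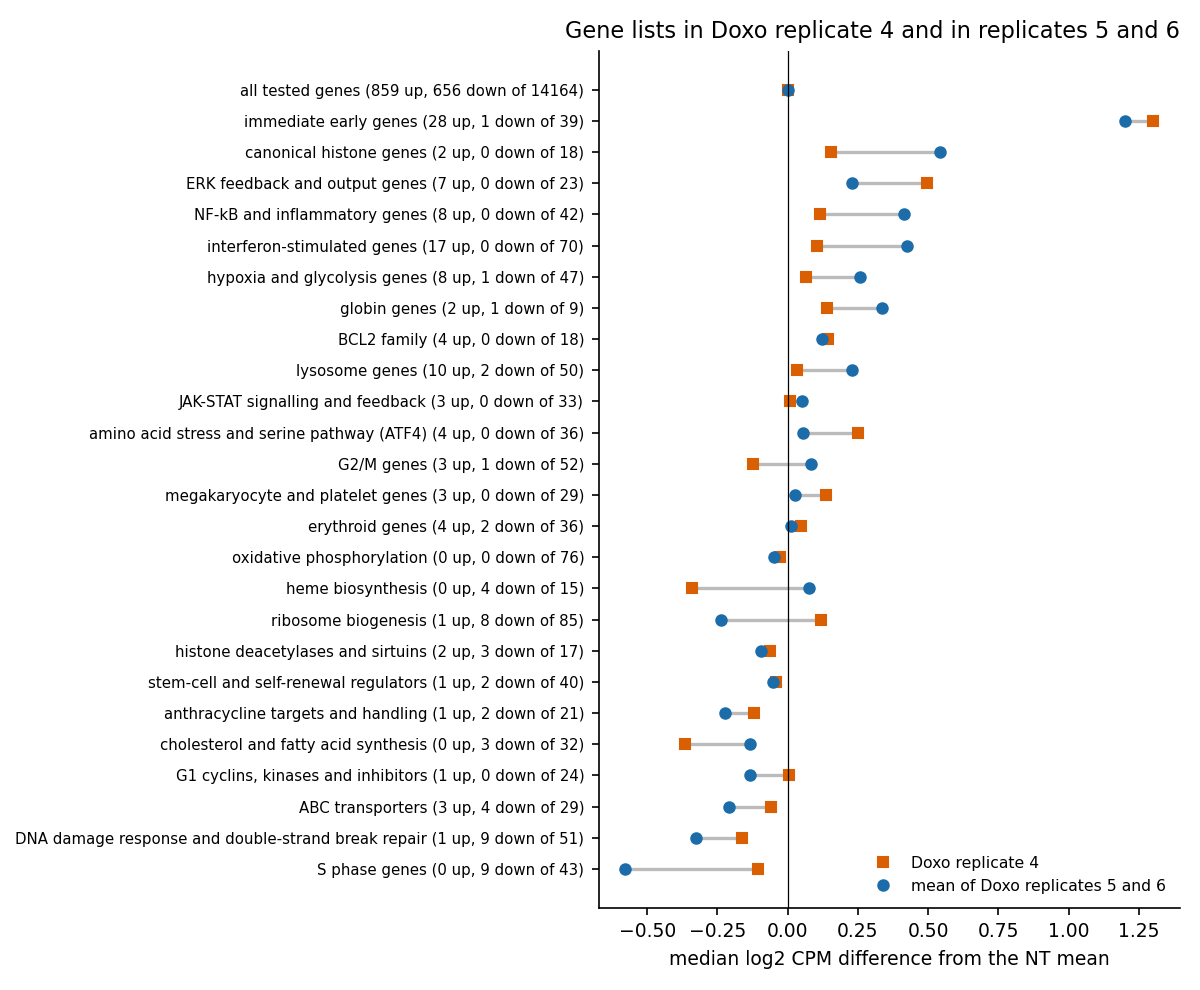
Median log2 CPM difference from the NT mean (horizontal) for gene lists (vertical, with the numbers called higher and lower of those tested) in Doxo replicate 4 (orange squares) and in the mean of replicates 5 and 6 (blue circles). Immediate early genes stand farthest right in both, at 1.30 and 1.20, while S-phase genes differ most between them, at -0.11 and -0.58.

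Single genes show the size of the gap. SLC19A1, the reduced folate carrier, was at 35.5 and 43.7 CPM in NT, 39.1, 10.1 and 12.8 CPM in Doxo replicates 4, 5 and 6, so that replicate 4 lay at the untreated level and the others well below. PFAS, an enzyme of purine synthesis, ran from 43.5 and 53.4 CPM in NT to 36.8, 10.7 and 10.7 CPM in Doxo, and PUS1, a pseudouridine synthase, from 29.3 and 27.2 CPM to 39.7, 12.6 and 13.6 CPM. UHRF1, which guides maintenance DNA methylation and is shown after its values were seen, was at 45.1 and 49.02 CPM and 45.4, 18.7 and 18.6 CPM. On the other side, DNAJB9, a chaperone of the endoplasmic reticulum, was at 15.5 and 14.3 CPM in NT and 15.01, 42.5 and 48.98 CPM in Doxo, the linker histone gene HIST1H1C at 62.2 and 55.99 CPM and 61.6, 155 and 157 CPM, and YPEL2 at 10.6 and 9.83 CPM and 5.37, 16.7 and 16.3 CPM. In all of these the gap separates replicate 4 alone, and replicates 5 and 6 were close. The genes were chosen for this gap, which therefore has no test.

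Among the 1515 called genes, replicate 4 was the relapse library nearest to NT in 1050 (69.3%), against 53.2% of all tested genes. Leaving it out turned the balance of calls, from 859 higher and 656 lower to 1421 higher (10.1%) and 1716 lower (12.2%), and 1449 of the 1515 genes stayed called. The balance also turned under other settings, where 695 of 1434 called genes were higher under upper-quartile scaling, 739 of 1638 without a filter on low counts and 1288 of 2585 without Doxo+Cyta replicate 20. Without replicate 5 the calls were 290 higher (2.05%) and 172 lower (1.22%), or 3.27% in all, and without replicate 6 they were 322 higher (2.28%) and 178 lower (1.26%), or 3.53%.

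**Figure D3:**
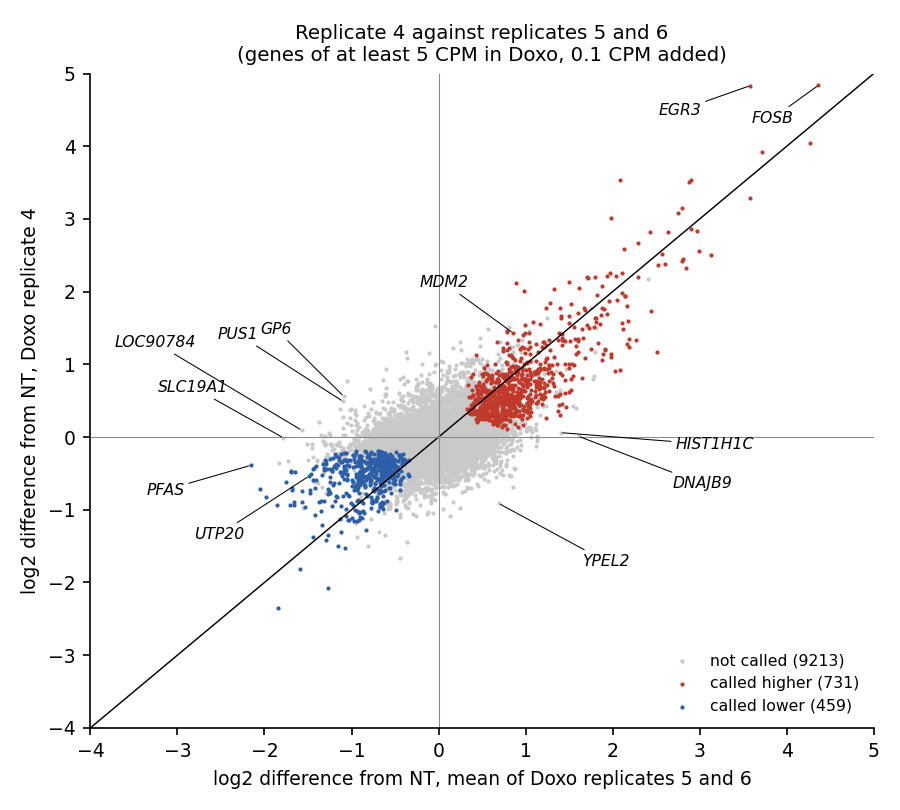
Log2 difference from NT of Doxo replicate 4 (vertical) against that of the mean of replicates 5 and 6 (horizontal) for genes of at least 5 CPM in Doxo, with 0.1 CPM added, called genes in red and blue and a line of equality. FOSB and EGR3 lie at the upper right, above the line, whereas SLC19A1 and PFAS lie far to the left and much nearer 0 on the vertical axis.

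Beside single genes, 2 stretches of chromosome moved as blocks. The genome was divided into windows of 20 Mb, of which 152 held at least 20 tested genes, and these 2 were picked after the values were seen, so their shift is a description. At the start of chromosome 6, from 1 to 20000000, 20 of 67 tested genes fell and 0 rose, with a median log2 ratio of -0.67. The fall was present in each relapse library, with medians of -0.70, -0.61 and -0.60 in replicates 4, 5 and 6, and 61, 62 and 61 of the 67 genes below the NT mean, whereas the NT libraries differed by 0.02 and the next window of the chromosome had a median of -0.06. DUSP22, a phosphatase, was at 31.4 and 31.6 CPM in NT and 17.03, 16.9 and 15.97 CPM in Doxo (log2 ratio -0.92, adjusted p = 0.00475), and GMDS, an enzyme of GDP-fucose synthesis, at 33.1 and 29.7 CPM and 14.7, 13.5 and 16.5 CPM (log2 ratio -1.08, adjusted p = 0.00905). NQO2, TMEM14C and SIRT5, counted above as lower, lie in this window.

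At the end of the long arm of chromosome X, from 140000001 to 160000000, 25 of 85 tested genes rose and 1, SRPK3, fell, with a median of 0.64. The medians were 0.69, 0.54 and 0.58 in replicates 4, 5 and 6. MPP1, a membrane protein of red cells, was at 326 and 305 CPM in NT and 626, 788 and 772 CPM in Doxo (log2 ratio 1.21, adjusted p = 0.00661), and FLNA, the actin crosslinker filamin A, at 931 and 1065 CPM and 2129, 1884 and 1682 CPM (log2 ratio 0.93, adjusted p = 0.00536). PNCK, a calmodulin-dependent kinase, went from 3.50 and 4.11 CPM to 27.5, 26.8 and 21.6 CPM (log2 ratio 2.73, adjusted p = 0.00549). IDS, ATP6AP1 and RPL10, also called higher, lie in the same window. The other 150 windows had medians between -0.35 and 0.37. Copy number was not measured in these files.

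Both shifts also appeared in other relapses. In Doxo+Cyta replicates 19, 20 and 22 the medians against NT were -0.47, -0.61 and -0.33 in the chromosome 6 window and 0.07, 0.63 and 0.32 in the chromosome X window. In Doxo+Cyta+DAC replicates 30 to 33 they were -0.63, 0.05, -0.38 and -0.73 for chromosome 6 and 0.48, 0.02, 0.48 and 0.55 for chromosome X. Replicate 31 thus showed neither, and Doxo+Cyta replicate 19 only the former. These medians use the same NT libraries.

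**Figure D4:**
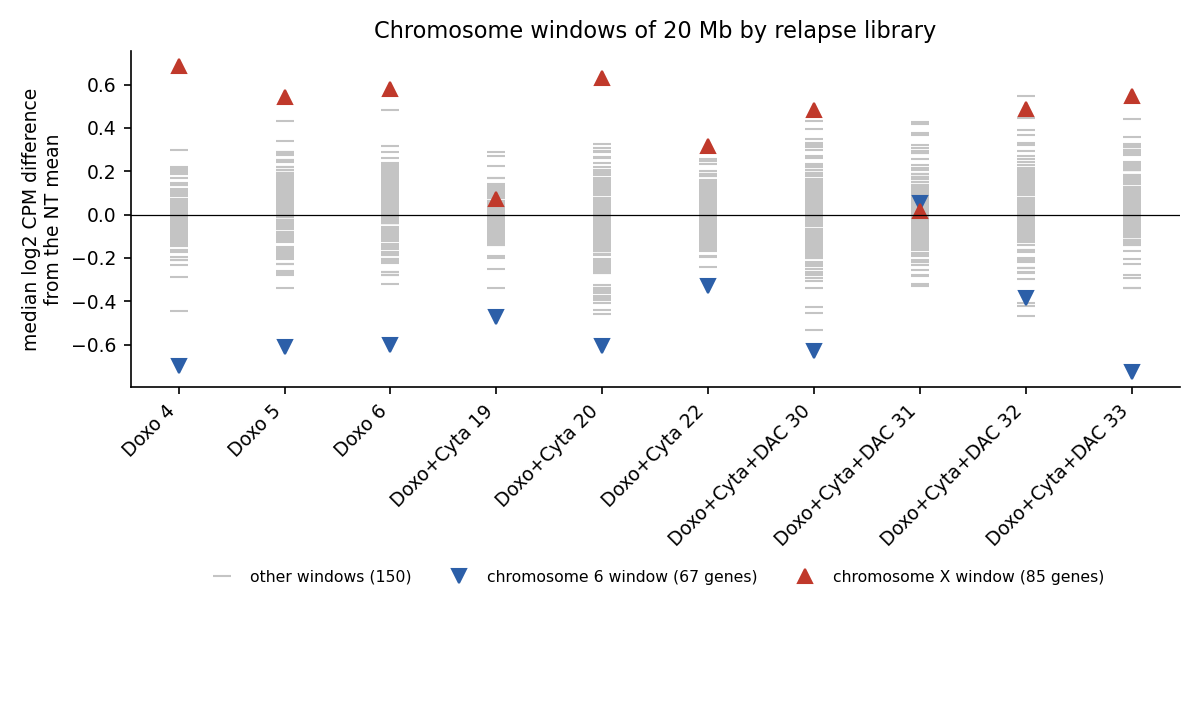
Median log2 CPM difference from the NT mean (vertical) of each 20 Mb window in every relapse library (horizontal), with the chromosome 6 window as blue and the chromosome X window as red triangles and the other 150 windows as gray bars. All 3 Doxo libraries show the chromosome 6 window at -0.70 to -0.60 and the chromosome X window at 0.54 to 0.69, outside their other windows.

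Set directly against Doxo+Cyta in the same fit, 481 genes differed (3.40%), 329 of them higher in Doxo (2.32%). This comparison uses the same Doxo libraries as the one with NT. Immediate early genes took part with 25 of 39 tested members higher in Doxo and 0 lower, at a median log2 difference of 0.93. FOSB was at 17.5, 19.6 and 18.7 CPM in Doxo+Cyta, each below every Doxo library (log2 difference 3.20, SE 0.26, adjusted p = 9.54e-05). EGR2 was at 0.371, 1.47 and 0.611 CPM (log2 difference 3.57, SE 0.35, adjusted p = 0.000243), and PTGS2 at 13.3, 12.9 and 17.9 CPM (log2 difference 1.43, SE 0.14, adjusted p = 0.000243). MDM2 was at 81.7, 74.5 and 88.2 CPM in Doxo+Cyta, which overlaps NT and lies below Doxo (log2 difference 1.17, SE 0.17, adjusted p = 0.0024), while CDKN1A was at 11.9, 45.97 and 13.1 CPM, with replicate 20 apart from the others (log2 difference 2.06, SE 0.45, adjusted p = 0.0251). For ABCG2 the Doxo+Cyta libraries were at 1.86, 1.13 and 1.59 CPM and the difference did not pass (log2 difference 0.06, SE 0.40, adjusted p = 0.952), nor did that of HDAC9, at 0.124, 0.667 and 1.65 CPM (log2 difference -1.17, SE 0.88, adjusted p = 0.492). Of 43 tested S-phase genes 1 was higher in Doxo and 0 lower, with a median difference of 0.02. Against Doxo+Cyta+DAC, 8430 genes differed (59.5%), 4303 of them higher in Doxo (30.4%), and FOSB was again higher in Doxo (log2 difference 2.40, SE 0.22, adjusted p = 1.57e-06).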

How the data were processed

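RNA of 12 samples of HEL cells was sequenced as paired-end reads of 100 bases from TruSeq libraries, and the 3 Doxo and 2 NT samples, grouped by their labels, were compared here. The series text describes 3 untreated samples, of which 2 are labelled and were used. The authors checked reads with FastQC, filtered them with the fastx-toolkit, aligned them to GRCh38 with Bowtie2 2.2.8, an aligner that leaves reads across exon junctions unsplit, and counted fragments on exons with featureCounts 1.6.0. Strand was ignored in counting, and fragments mapping to several places were dropped. The deposited values are these whole-number counts per gene, not normalized. The gene annotation is not given in the sources used here. Near-identical copies, overlapping genes and antisense partners are therefore uncertain. Of 26485 genes, 4 with a missing count were left out, 4 names had been turned into dates, and 1214 genes had copies on further contigs.

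From the counts, 14164 genes passed edgeR's filterByExpr and were tested with edgeR 4.0.16 in R 4.3.3 (TMM scaling, glmQLFit and glmQLFTest over all 12 samples without covariates, two-sided, Benjamini-Hochberg adjustment over all tested genes). The biological coefficient of variation was 0.154, on 8 residual degrees of freedom. A standard error is the log2 fold change divided by the root of F. CPM use the TMM-scaled library sizes, and log2 CPM a prior count of 2. A fold against a group with no library above 3 counts is a lower bound, set at 3 counts per library. Simulated counts of this comparison held 14164 genes, of which 200 were changed, 50 at each fold. Of these, 68% were recovered at 2-fold, 96% at 3-fold, 94% at 4-fold and 100% at 8-fold, with 8 false calls. These rates describe the simulated counts only and do not measure recovery or false calls in the real libraries. There, the 1515 called genes became 3137 without Doxo replicate 4 and 462 without Doxo replicate 5. Tables were made in Python 3.11.15 (numpy 2.4.6, pandas 2.3.3) and figures with matplotlib 3.10.9.

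Named genes were the 12 per direction with the largest fold change at an adjusted p under 0.01, a mean of 1 CPM or more in whichever group was higher and libraries that did not overlap, the 6 per direction with the largest difference in CPM, the 4 members of each list with the smallest p (the 2 highest where none was called), the 5 per direction in which replicate 4 lay farthest from replicates 5 and 6 at 5 CPM or more with those within 0.5 of each other, and ABCG2, ABCB1, ABCC1, TOP2A, TOP2B, CBR1, CBR3, CDKN1A, CDKN1C, MYC, HDAC9, MET, TXNIP, CD34, CD38 and JAK2. Some genes that this rule picked, and 1 gene list, are not reported here. Further list members are given as members of their list. CD38 was below the count filter, and MET, at least 1.57-fold higher in Doxo, did not pass (adjusted p = 0.114). The comparison, the gene lists and the members were chosen with earlier results of these data known. Alternatives were RLE and upper-quartile scaling, no filter, at least 10 counts in every sample, a fit of Doxo and NT only, libraries drawn down to the smallest total, leaving out the 100 most counted genes, leaving out each library in turn, DESeq2 1.42.0, a threshold on the natural log of the fold change, and other settings for distances. The windows and their alternatives were added after seeing the data.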

Additional observations from a re-analysis of the deposited data

How the results depend on the processing

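With another scaling, filter, depth or gene set, a fit of Doxo and NT only, or DESeq2, all Doxo and NT libraries were kept. The number of genes at an adjusted p under 0.05 then lay between 1391 and 2128, with DESeq2 the highest. Leaving out 1 Doxo or NT library gave 81 to 3137, and leaving out 1 Doxo+Cyta or Doxo+Cyta+DAC library 1294 to 2585, the highest without Doxo+Cyta replicate 20. With the natural log of the fold change beyond 1 as a further threshold it was 277. The number over 3-fold at an adjusted p under 0.01 was 157 without a filter on low counts and 153 with DESeq2, and 5 to 189 without 1 library. No filter on low counts lowered the share of called genes that were higher from 56.7% to 45.1%, while another scaling left it at 48.5% or more. The distance of Doxo replicates 4, 5 and 6 from the other two was 0.520, 0.412 and 0.407 as reported, 0.393, 0.260 and 0.254 over genes of at least 10 CPM, 0.952, 0.716 and 0.709 over the 500 most variable genes, and 0.479 and 0.472 for replicates 5 and 6 with a prior count of 0.5. Replicate 4 was the farthest in each.

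Of the 146 named genes tested, calls were lost in 89 without NT replicate 1, 86 without NT replicate 2, 46 without Doxo replicate 5 and 45 without Doxo replicate 6. With 1 NT library left, that library is assumed to vary like the other groups. Window medians lay between -0.73 and -0.60 on chromosome 6 and between 0.53 and 0.66 on chromosome X under these settings. No paired analysis was possible because the Doxo and NT groups share no replicate numbers. With 2 NT libraries, a gene of few counts can differ without passing the test, and intervals of single values cover counting error only.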
